A study of Homo sapiens with 8 samples.

Results

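The baseline transcriptomes of NCI-H929 and MM1.S, both established human multiple myeloma cell lines, were compared on the arrays of cells carrying a scramble short hairpin construct, a non-targeting control. The comparison covers every row of the array table that carries a gene symbol, with 1 row kept per gene (the one with the highest mean over the series), which gave 14884 genes out of a table of 48226 rows. Of these, 12734 had a mean log2 level above 3.045, the 30th percentile of all rows, and were tested. The 4 arrays compared are 2 of NCI-H929 with the scramble construct and 2 of MM1.S with the scramble construct, out of 8 in the series. The other 4 arrays come from the same lines carrying a hairpin against SIRT6, a chromatin deacetylase that uses NAD, and they entered the fit and served as a second set of arrays for the same line difference. Each line is 1 cell line from 1 patient, so translocation, origin, culture history and construct integration cannot be told apart in any value below. Whether both arrays of a group stem from different cultures is not stated in the labels, so each p-value reflects the array-to-array spread, whose source may be technical.

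Multiple myeloma is a cancer of plasma cells, the antibody-secreting end stage of the B cell lineage. In many cases a translocation places an oncogene under the immunoglobulin heavy chain enhancers. NCI-H929 is known to carry t(4;14), which puts the histone methyltransferase NSD2 and often the receptor FGFR3 under those enhancers, and MM1.S to carry t(14;16), which does the same for the transcription factor MAF. Cyclin D2 is a known MAF target, and MAF myeloma is also known for its adhesion and homing genes.

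All values are log2 levels after RMA, a method that corrects background, normalises arrays to each other and summarises the probes of a transcript. Differences are NCI-H929 minus MM1.S in log2 units, so that 1 is a doubling, with the standard error (SE) of limma's moderated test. A gene counts as called where its limma p-value, adjusted by Benjamini and Hochberg's method for all 12734 genes, is under 0.05. The number of arrays limits the precision: the median SE was 0.133, the median 95% interval ran 0.311 to each side, and the smallest difference called was 0.275. Without scanner intensities, which were not analysed here, low levels could not be told from background. The arrays of the same line and construct correlated across all rows at 0.9888 to 0.9917, those of the same line with the other construct at 0.9853 to 0.9894, and those of different lines at 0.9418 to 0.9500. At most 1.96% of rows held equal values on any pair of arrays, so no array was a copy of another.

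The translocation genes lay on the sides known for their lines. FGFR3, a fibroblast growth factor receptor, read 6.77 and 6.58 on the NCI-H929 arrays against 4.65 and 4.62 on the MM1.S arrays, a difference of 2.04 ± 0.13 (SE, adjusted p = 2.93e-05, limma). NSD2 read 9.17 and 9.27 against 7.84 and 7.85, a difference of 1.38 ± 0.09. The arrays of the lines did not overlap for either gene, which was also so for 67.9% of all tested genes. Of the 11 tested genes of the t(4;14) list, which holds both targets and their neighbours on 4p16, 3 were higher in NCI-H929 and 3 lower. That is 27.3% each way, beside 20% and 18.3% of all genes, and the median was 0.18. The neighbour NICOL1 was higher by 0.85 ± 0.25, while POLN, SLBP and RNF4 were lower by 0.90, 0.40 and 0.42 log2 units. The calls of NICOL1, RNF4 and SLBP did not hold without some single scramble arrays (4, 3 and 3 of the 4), where the differences ran from 0.69 to 1.02, −0.54 to −0.29 and −0.45 to −0.34.

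MAF and cyclin D2 stood on the other side. MAF read 9.77 and 9.65 on the MM1.S arrays and 8.27 and 8.24 on the NCI-H929 arrays, a difference of −1.46 ± 0.13. CCND2, the gene of cyclin D2, read 10.40 and 10.42 in MM1.S and 7.89 and 7.84 in NCI-H929, a difference of −2.54 ± 0.10. A second row of CCND2, with a lower mean, gave a difference of −1.80. NCI-H929 was higher for another D cyclin, CCND1, by 2.56 ± 0.11. Among the 7 tested genes of the MAF list, 4 were lower in NCI-H929 (57.1%, beside 18.3% of all genes) and none was higher, with a median of −0.61. MAF and CCND2, which were chosen as markers of the lines, are among these 4. The remaining called members were DEPTOR, an inhibitor of mTOR (−0.88 ± 0.10), and the fractalkine receptor CX3CR1 (−0.61 ± 0.16). The CX3CR1 call ended without any 1 of the 4 scramble arrays, with differences from −0.65 to −0.57. LAPTM5, a protein of lysosomal membranes in blood cells that promotes degradation of antigen receptors, showed the widest gap of all tested genes: 12.80 and 12.84 on the MM1.S arrays against 4.32 and 5.01 on the NCI-H929 arrays, a difference of −8.16 ± 0.24 (adjusted p = 1.34e-06, limma).

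Over all genes, 4875 of 12734 were called, or 38.3%. Of these 2543 were higher in NCI-H929 (20% of genes tested) and 2332 were lower (18.3%), and the median difference was 0.03. The median size of the difference, called or not, was 0.29. A difference of at least 1 log2 unit was called for 746 genes higher in NCI-H929 (5.86%) and for 713 lower (5.6%). Of these, 59 and 75 reached 3 log2 units, which is 8-fold. The arrays of the lines did not overlap for any called gene, but they also did not overlap for 67.9% of all tested genes, so separation of the arrays by itself says little.

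The genes highest in NCI-H929 over MM1.S came from several unrelated families. PURPL, a long noncoding RNA induced by p53, read 10.36 and 10.24 in NCI-H929 and 3.69 and 3.01 in MM1.S, a difference of 6.95 ± 0.21. NES, the gene of the intermediate filament nestin, read 10.96 and 10.78 against 4.78 and 4.72, a difference of 6.12 ± 0.12. LAPTM4B, a lysosomal membrane protein related to LAPTM5, read 10.05 and 9.99 against 4.83 and 4.83, a difference of 5.19 ± 0.09, so the LAPTM pair stood at opposite ends of the comparison. Differences between 4.07 and 5.33 were found for the Fc receptor-like gene FCRL2, the pseudogene transcript TSSC2, the membrane proteins MLC1 and HEG1, the thyrotropin receptor TSHR, the lymphocyte adaptor THEMIS2, the noncoding RNA FAM30A, the RNA-binding protein IGF2BP3, the transcription factor NFIC and the heparan sulfate sulfotransferase HS3ST3B1. AMPD1, an AMP deaminase, rose from 8.13 and 7.99 in MM1.S to 12.24 and 12.16 in NCI-H929 (4.14 ± 0.10). CTAG1A, which encodes the cancer-testis antigen NY-ESO-1 and has a near-identical copy that probes cannot separate, differed by 4.85 ± 0.12.

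The genes highest in MM1.S over NCI-H929 included several signalling adaptors of lymphocytes. STAP1, an adaptor of B cell receptor signalling, read 8.08 and 7.87 in MM1.S and 2.62 and 2.30 in NCI-H929, a difference of −5.51 ± 0.13. TRAT1, an adaptor known from T cell receptors, differed by −5.26 ± 0.17, the focal adhesion adaptor LPXN by −5.45 ± 0.18 and pleckstrin, PLEK, by −5.03 ± 0.20. Outside signalling, the glutaminyl cyclase QPCT differed by −6.34 ± 0.17, the synaptonemal complex gene SYCP3 by −5.69 ± 0.34 and the splicing regulator MBNL2 by −4.93 ± 0.09. The stem cell transcription factor SOX2 read 8.11 and 7.92 in MM1.S and 3.38 and 3.61 in NCI-H929. POGLUT2, TEX9, SULF1, SLAMF6, FAAH2 and PCP4 completed the set, with differences from −5.56 to −4.69. Both sets of largest differences were drawn only from called genes whose arrays did not overlap between the lines. Separation of the arrays was thus a condition of entry, and the plot of the largest differences shows its size.

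**Figure D1:**
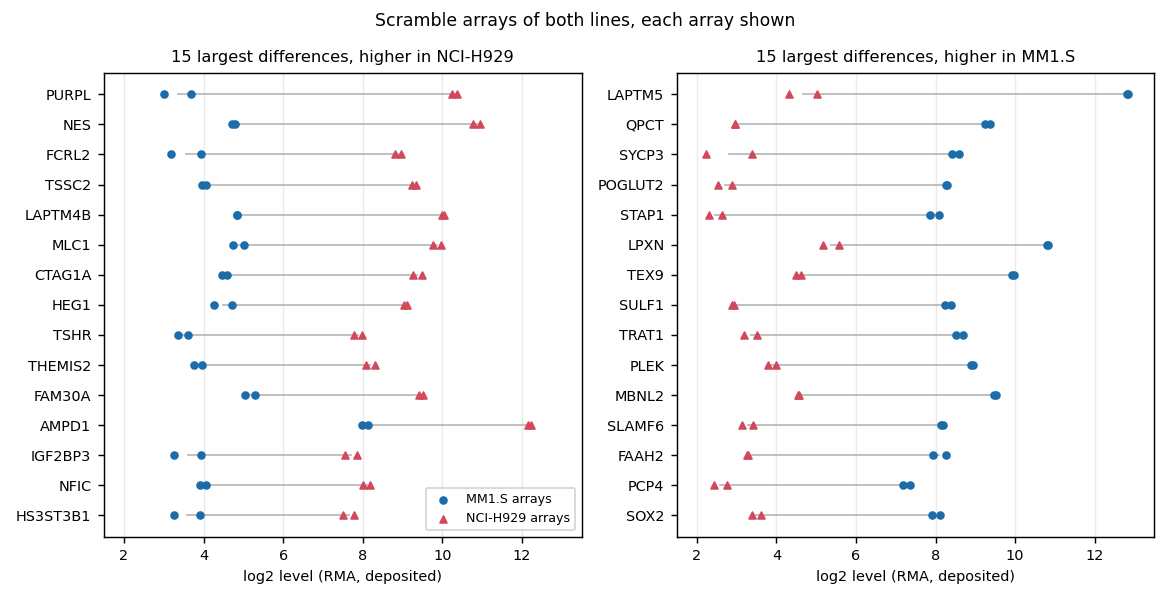
Log2 level on each of the 4 scramble arrays for the 15 genes with the largest difference in each direction, circles for MM1.S and triangles for NCI-H929, with a grey line between the means. PURPL leads the left panel with a difference of 6.95 and LAPTM5 the right with −8.16, and replicate arrays lie close together beside these gaps.

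Genes read in 1 line only were few under a strict rule. A gene counted if both arrays of a line were at 6 or above and both arrays of the other at or below 3.045. In MM1.S 6 genes did: QPCT, SULF1, POGLUT2, STAP1, PCP4 and LXN. QPCT read 9.38 and 9.23 against 2.97 and 2.96. SULF1, an extracellular enzyme that trims sulfates from heparan sulfate chains, read 8.39 and 8.23 against 2.94 and 2.89, and the latexin gene LXN read 6.44 and 6.53 against 2.77 and 2.78. In NCI-H929 only the long noncoding RNA MIR2052HG did, at 6.39 and 6.09 against 2.98 and 2.76. It was named after its values were seen. On the shSIRT6 arrays only QPCT and STAP1 of these 7 met the same rule. The other 5 each had at least 1 array of the low line above 3.045 there, such as SULF1 at 3.68 and 3.67 in NCI-H929. The levels are averages over cells, so fewer expressing cells and less RNA per cell cannot be told apart, here and below. The count depends on the limits chosen: with the lower limit at the median of all rows (3.94) it was 38 in MM1.S and 26 in NCI-H929, and without the first NCI-H929 scramble array it was 12 and 1. Without the first MM1.S scramble array it was 6 and 5.

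Both lines read as plasma cells. IRF4, the transcription factor on which myeloma cells depend, read 11.61 and 11.54 in MM1.S and 11.65 and 11.65 in NCI-H929, with a 95% interval of the difference from −0.14 to 0.29. Of 14 tested plasma cell genes 5 were higher in NCI-H929 (35.7%) and 2 lower (14.3%), with a median of 0.21. The called members were the secretory transcription factor XBP1 (0.66 ± 0.10), the surface proteins CD38 (0.88 ± 0.12) and syndecan 1, SDC1 (0.47 ± 0.09), the Fc receptor-like gene FCRL5 (3.94 ± 0.15) and the nucleic acid sensor ZBP1 (1.17 ± 0.11). SLAMF7, a surface target of antibody therapy, and the costimulator CD28 were lower, by 0.60 and 0.33. The CD28 call ended without any 1 of the 8 arrays, with differences from −0.41 to −0.26 without single scramble arrays. It also ended with only the 4 scramble arrays in the fit. MZB1, a chaperone of antibody secretion, differed by 0.25 ± 0.09 and did not pass the test.

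The B cell list split rather than shifted: of 31 tested genes 9 were higher in NCI-H929 (29.0%) and 8 lower (25.8%), with a median of 0.09. The kinase SYK, which acts in antigen receptor signalling, read 7.26 and 7.35 in MM1.S and 3.20 and 3.35 in NCI-H929, a difference of −4.03 ± 0.13. The scaffold BLNK, which links SYK to downstream enzymes, read 8.49 and 8.39 against 4.90 and 5.28, a difference of −3.35 ± 0.15. The costimulator CD86 (−2.93 ± 0.19) and the complement receptor CR2 (−2.43 ± 0.12) were lower in NCI-H929. For each of these genes both MM1.S arrays lay at least 2 log2 units above both NCI-H929 arrays.

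Other kinases and modulators of the same receptor lay on the NCI-H929 side. LYN, a kinase that acts upstream of SYK, was higher by 1.16 ± 0.09 and BTK, a kinase that acts downstream, by 0.81 ± 0.14. The proton channel HVCN1 was higher by 1.92 ± 0.29. FCRL2 read 8.96 and 8.81 in NCI-H929 and 3.94 and 3.18 in MM1.S, FCRL5 read 7.13 and 7.41 against 3.35 and 3.30, and FCRL3 was higher by 1.95 ± 0.25. These Fc receptor-like genes neighbour each other on chromosome 1, and the family member FCRL1, at 4.29 to 4.62 on all 4 arrays, differed by 0.17 ± 0.11 and did not pass the test. The B cell transcription factors PAX5 and SPIB and the B cell surface protein CD22 differed by 0.12, 0.03 and 0.03, none of them called.

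Of 52 tested transcription factors of blood cells 13 were higher in NCI-H929 (25%) and 16 lower (30.8%), with a median of −0.01. Among the lower ones, MEIS1 read 7.04 and 7.12 in MM1.S and 5.45 and 5.45 in NCI-H929 (−1.63 ± 0.09). Its partner PBX3 (−1.44 ± 0.16) and MYB (−1.60 ± 0.21) were lower as well, as were ETV6 (−1.02 ± 0.09), LEF1 (−1.05 ± 0.11) and IRF8 (−1.04 ± 0.12). MYB and IRF8 were named after their values were seen. MYC, which drives growth in myeloma, was higher in NCI-H929 by 0.81 ± 0.09, RUNX3 by 1.14 ± 0.10 and TCF3 by 0.93 ± 0.12.

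**Figure D2:**
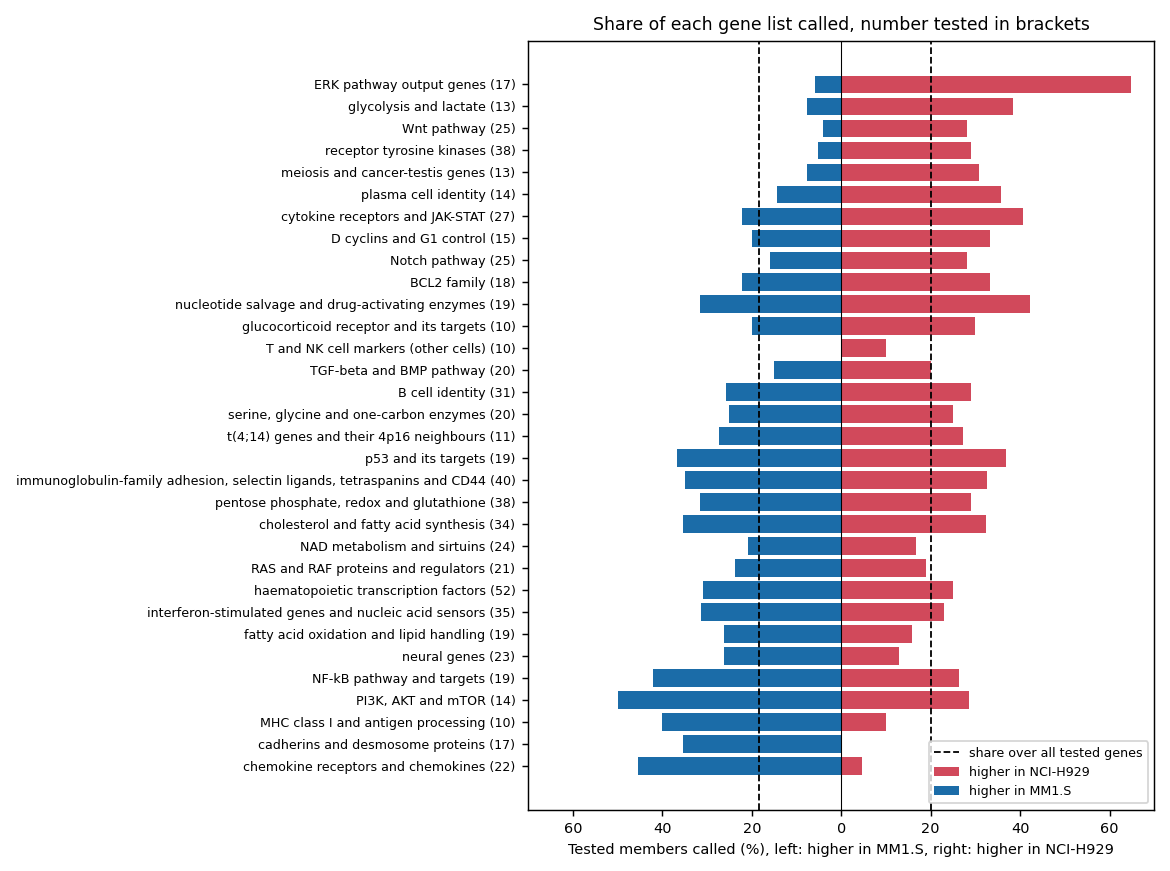
Share of the tested members of each gene list with at least 10 tested members that were called higher in NCI-H929 (right) or higher in MM1.S (left), in percent, with dashed lines at the shares over all tested genes (20% and 18.3%). ERK pathway output genes reach 64.7% on the right, and chemokines and their receptors 45.5% on the left. The lists were chosen with earlier results of these data known.

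Surface adhesion genes differed in both directions. Of 40 tested members of the immunoglobulin-family, selectin ligand and tetraspanin list, 13 were higher in NCI-H929 (32.5%, beside 20% of all genes) and 14 lower (35.0%, beside 18.3%), with a median of −0.16. NCAM1, the adhesion molecule CD56 that many myelomas carry, read 8.84 and 8.83 in NCI-H929 and 5.44 and 5.16 in MM1.S, a difference of 3.54 ± 0.24. ICAM1, a ligand of leukocyte integrins, read 8.68 and 8.89 against 6.36 and 6.44, a difference of 2.38 ± 0.11. The junctional proteins JAM3 and PECAM1 were higher by 2.23 ± 0.16 and 1.52 ± 0.16. In all 4 genes the lowest NCI-H929 array lay above the highest MM1.S array, but arrays also did not overlap for 67.9% of all tested genes.

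On the MM1.S side were the lymphocyte receptor SLAMF6, at 8.13 and 8.18 against 3.41 and 3.14, and the tetraspanins CD9 (−2.08 ± 0.19) and TSPAN7 (−2.01 ± 0.18). The integrin ligand ICAM2 was higher in NCI-H929 by 0.50 ± 0.10, as ICAM1 was, whereas ICAM3 differed the other way, by −1.46 ± 0.15. CD47, the signal that restrains macrophages (−1.05 ± 0.10), and the selectin ligand SELPLG (−0.83 ± 0.09) were lower in NCI-H929. The cadherin and desmosome list had 6 of 17 members lower in NCI-H929 (35.3%) and none higher, with a median of −0.07. Desmoplakin, DSP, which ties desmosomes to filaments, read 6.94 and 6.88 in MM1.S and 3.84 and 4.49 in NCI-H929, and its partner plakoglobin, JUP, was lower by 1.11. The protocadherin PCDH18 was lower by 1.99 ± 0.20. Integrins, the main adhesion receptors of plasma cells, had no named row here.

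The homing genes that were called were lower in NCI-H929, with 1 exception. Of 22 tested chemokines and receptors 10 were lower (45.5%) and 1 higher (4.55%), with a median of −0.37. CXCR4, which holds plasma cells in the bone marrow, read 8.55 and 8.30 in MM1.S and 5.88 and 5.62 in NCI-H929, a difference of −2.67 ± 0.13. The monocyte chemokine receptor CCR2 read 6.01 and 5.96 against 4.06 and 3.82, and the interferon-induced ligand CXCL10 read 5.18 and 5.14 against 3.02 and 2.95. The sphingosine phosphate receptor S1PR2 differed by −1.43 ± 0.16. The inflammatory ligand CCL3 was lower by 0.88, while its relative CCL4 was the 1 member that was higher, by 0.60 ± 0.15. That call ended without 3 of the 4 single scramble arrays, with differences from 0.41 to 0.80. CXCR3 and CCR7 did not pass the test, with differences of −0.16 and −0.20.

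Among 38 tested receptor tyrosine kinases 11 were higher in NCI-H929 (28.9%) and 2 lower (5.26%), with a median of 0.08. Besides FGFR3, the collagen receptor DDR2 read 7.76 and 7.85 in NCI-H929 and 5.68 and 5.42 in MM1.S, and the hepatocyte growth factor receptor MET read 6.83 and 6.39 against 4.30 and 4.51. The differences were 2.25 ± 0.13 and 2.21 ± 0.26. MERTK, a receptor for apoptotic cells, was the largest difference of the list and ran the other way, at 7.96 and 7.73 in MM1.S and 4.17 and 4.22 in NCI-H929 (−3.65 ± 0.11). ROR2, a receptor for Wnt ligands, was lower by 2.10 and its relative ROR1 higher by 0.98. IGF1R, the receptor through which IGF1 feeds myeloma cells, differed by 0.07 ± 0.10, with an interval from −0.17 to 0.31.

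Transcripts that ERK kinase activity is known to induce, most of them feedback inhibitors or ETS and AP-1 transcription factors, were largely higher in NCI-H929. Of 17 tested, 11 were higher (64.7%, against 20% of all genes) and 1 lower (5.88%), with a median of 0.98. The list was chosen with earlier results of these data known, so its share is a description and was not tested. The ETS factor ETV4 read 7.47 and 7.28 in NCI-H929 and 4.28 and 4.41 in MM1.S, a difference of 3.03 ± 0.15. The feedback inhibitor SPRY4 read 5.52 and 5.57 against 3.83 and 3.77, the ERK phosphatase DUSP6 9.45 and 9.49 against 7.88 and 8.13, and the early response gene EGR1 7.17 and 7.32 against 5.80 and 5.62. CCND1, also a member, was described above, and the remaining higher members, DUSP5, MYC, IER3, EPHA4, ETV5 and FOSL1, differed by 0.81 to 1.21. Other rows of IER3, with lower means, gave differences from 0.115 to 1.395. A second row of EGR1, with a mean of 3.29 over the 8 arrays, gave 0.38, and one of DUSP5 gave 0.995. With the rows of each gene averaged, 11 members were again higher and 1 lower, with a median of 0.88.

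DUSP4, another ERK phosphatase, was the exception, at 7.48 and 7.51 in MM1.S and 6.75 and 6.60 in NCI-H929 (−0.82 ± 0.11). FOS, ETV1, SPRY2, EGR3 and EPHA2 did not pass the test, with differences from −0.06 to 0.53. Of the pathway's own RAS proteins and regulators 4 of 21 were higher (19.0%) and 5 lower (23.8%), beside 20% and 18.3% of all genes. The exchange factor RASGRP3 read 9.05 and 8.95 in MM1.S and 7.23 and 7.30 in NCI-H929, a difference of −1.73 ± 0.10. NF1, which inactivates RAS, differed by 0.34 ± 0.12 and did not pass the test, but passed it after quantile or cyclic loess normalization. Protein phosphorylation was not measured.

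**Figure D3:**
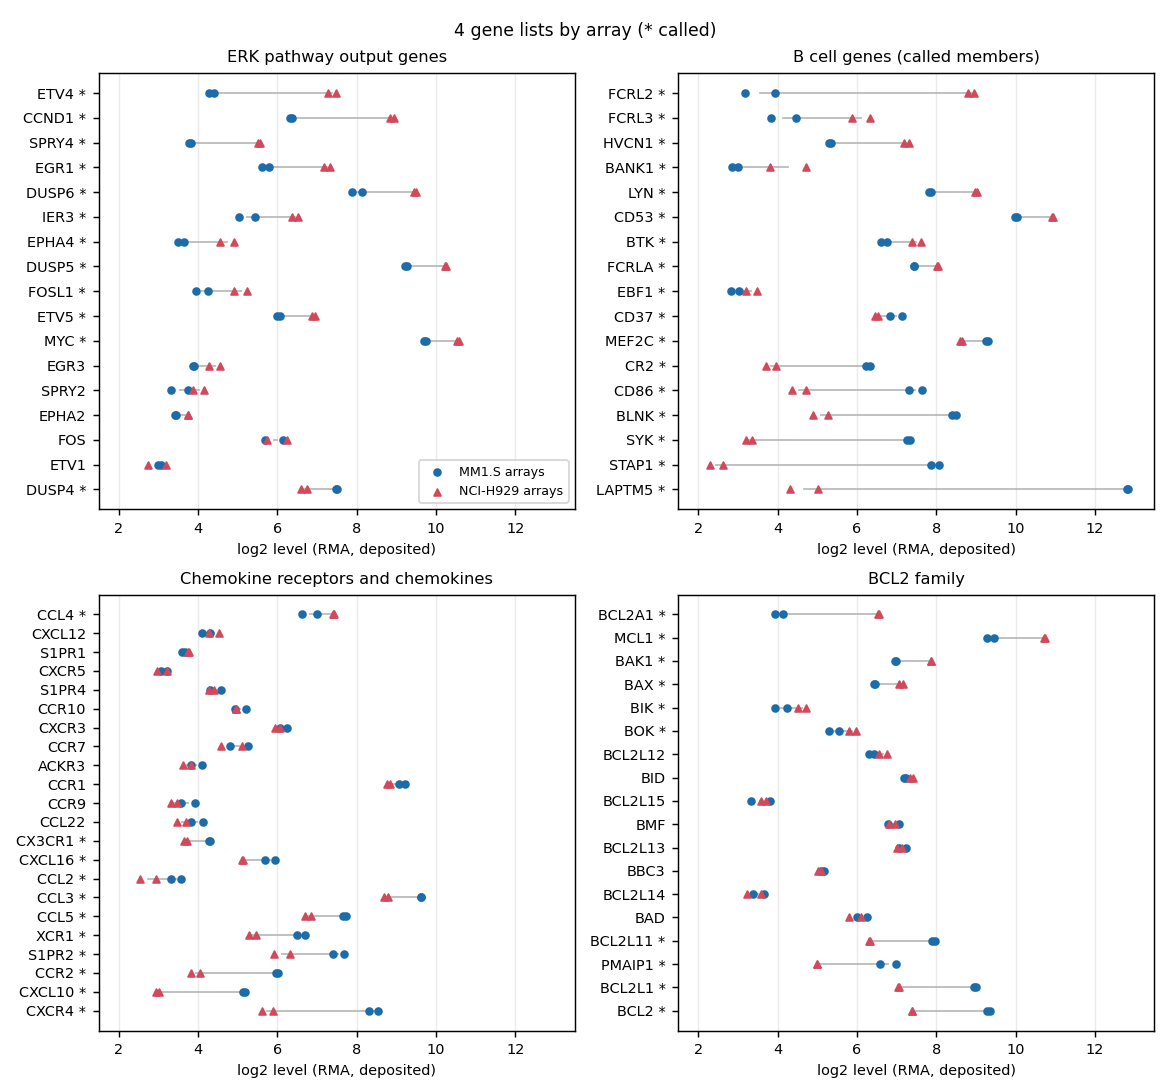
Log2 level on each of the 4 scramble arrays for the tested ERK pathway output genes, chemokines and receptors, and BCL2 family members, and for the called B cell genes, circles for MM1.S and triangles for NCI-H929, with called genes starred. In the first panel 11 of 17 genes are called with NCI-H929 above MM1.S and DUSP4 alone the other way, while chemokine genes lie mainly higher in MM1.S.

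Cytokine receptors and JAK-STAT genes had 11 of 27 members higher in NCI-H929 (40.7%) and 6 lower (22.2%), with a median of 0.24. STAT4, a transcription factor of interleukin 12 signalling, read 9.32 and 9.50 in NCI-H929 and 7.40 and 7.28 in MM1.S, a difference of 2.07 ± 0.12. JAK3, the kinase of common gamma chain receptors, was higher by 1.95 ± 0.24. STAT3, which transmits interleukin 6, and the interleukin 6 receptor IL6R were higher by 0.88 ± 0.11 and 0.40 ± 0.10, though the IL6R call ended without 3 of the 4 single scramble arrays (0.38 to 0.42). The STAT3 feedback inhibitor SOCS3 read 4.17 and 4.88 in MM1.S and 5.14 and 4.46 in NCI-H929, so that its arrays overlapped. PIM1, a kinase induced by STATs (−1.48 ± 0.15), the kinase JAK1 (−0.81 ± 0.12) and the interferon gamma receptor chain IFNGR2 (−1.82 ± 0.09) were lower in NCI-H929.

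The NF-kB list held large differences both ways. The transcription factor subunits NFKB1 and NFKB2 were lower in NCI-H929, with differences of −1.05 ± 0.10 and −1.02 ± 0.13, whereas REL read 8.58 and 8.71 in NCI-H929 and 6.14 and 5.67 in MM1.S (2.74 ± 0.17). The regulators TRAF5 (−3.65 ± 0.24) and CYLD (−1.60 ± 0.10) and the signalling protein MALT1 (−0.82 ± 0.11) were lower. Known NF-kB targets also ran both ways. The survival gene BCL2A1 and ICAM1 were higher, BCL2A1 at 6.53 and 6.55 against 3.94 and 4.13. MIR146A, a microRNA gene that NF-kB induces and that is described below, was lower by 1.87. In all, 5 of 19 tested members were higher (26.3%) and 8 lower (42.1%), with a median of −0.24. The TNF family ligand CD70, counted in another list, was lower by 2.25 ± 0.16.

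Of 14 tested genes of PI3K, AKT and mTOR signalling, 4 were higher in NCI-H929 (28.6%) and 7 lower (50%), with a median of −0.45. IGF1, a growth factor that plasma cells respond to, read 8.09 and 7.95 in MM1.S and 4.39 and 4.91 in NCI-H929, a difference of −3.37 ± 0.18. The docking proteins of its receptor ran opposite ways, IRS1 at 1.29 ± 0.10 and IRS2 at −1.23 ± 0.22. The kinase SGK1 was lower by 1.69, as was RHEB, the activator of mTOR, by 1.25. SGK1 is also a known glucocorticoid target, as is PER1, which was higher by 0.81, and the cortisol-activating enzyme HSD11B1 was higher by 1.49. Of that list 3 of 10 were higher (30%) and 2 lower (20%). The receptor NR3C1 itself had no named row here.

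Among developmental pathways the largest difference was in the Notch list. In the Notch list, with 7 of 25 members higher in NCI-H929 (28%) and 4 lower (16%), the coactivator MAML2 read 7.79 and 7.77 in MM1.S and 3.07 and 3.69 in NCI-H929 (−4.40 ± 0.19). Another row of MAML2, with a mean of 3.09 over the 8 arrays, gave a difference of −0.145. The Notch ligands ran opposite ways, with JAG2 higher by 1.34 ± 0.09 and JAG1 lower by 0.99 ± 0.12. The receptor NOTCH2 was lower by 0.77, the inhibitor NUMB higher by 1.53 and the target HEY1 higher by 1.37. The TGF-beta and BMP list had 4 of 20 higher (20%) and 3 lower (15%), close to the shares over all genes (20% and 18.3%). In it the corepressors SKI and SKIL also parted, at 1.98 ± 0.20 and −1.09 ± 0.09. The ligand BMP4 and the inhibitory pseudoreceptor BAMBI were higher by 1.18 and 1.55. Wnt genes had 7 of 25 higher (28%) and 1 lower (4.00%), with none past 1 log2 unit.

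The survival genes of the BCL2 family differed in both directions. Of 18 tested, 6 were higher in NCI-H929 (33.3%) and 4 lower (22.2%). BCL2 read 9.29 and 9.36 in MM1.S and 7.40 and 7.38 in NCI-H929, and BCL2L1, the gene of BCL-XL, read 8.95 and 9.01 against 7.03 and 7.07. The remaining antiapoptotic members called, MCL1 and BCL2A1, were higher in NCI-H929, MCL1 at 10.75 and 10.71 against 9.46 and 9.28 (1.36 ± 0.10). Of the proapoptotic members, BCL2L11, the gene of BIM, and PMAIP1, the gene of NOXA, were lower, with differences of −1.62 ± 0.10 and −1.79 ± 0.16, and the pore formers BAK1 and BAX were higher by 0.89 and 0.68. The arrays of the lines did not overlap for these 8 genes, as for every called gene and 67.9% of all tested genes.

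Cell cycle and p53 genes were also divided. CDKN2A, the inhibitor of CDK4 and CDK6, read 5.05 and 5.10 in NCI-H929 and 3.29 and 3.12 in MM1.S (1.87 ± 0.18). CDK6 and RB1 were higher by 0.57 and 0.62 while CDK4 differed by −0.18 ± 0.10 and did not pass. With the D cyclins, 5 of 15 genes of the G1 list were higher (33.3%) and 3 lower (20%). Of 19 tested p53 targets and partners 7 were higher (36.8%) and 7 lower (36.8%). PURPL, CCNG1 (0.96 ± 0.10) and PLK3 (1.55 ± 0.13) were higher in NCI-H929, whereas TP53INP1 (−2.27 ± 0.10), SESN1 (−2.19 ± 0.10) and PLK2 (−1.19 ± 0.18) were lower. TP53INP1 read 9.52 and 9.57 in MM1.S and 7.31 and 7.24 in NCI-H929. The stress-induced SESN2 was lower by 0.50.

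Enzymes that handle pyruvate and hexose were among the called genes of carbon metabolism. Of 13 tested glycolysis and lactate genes 5 were higher (38.5%) and 1 lower (7.69%), with a median of 0.22. Pyruvate carboxylase, PC, which feeds the citric acid cycle, read 5.86 and 6.06 in NCI-H929 and 4.05 and 3.86 in MM1.S (2.00 ± 0.17). The mitochondrial PCK2 and the hexokinase HK2 were higher by 0.94 and 0.55. The lactate dehydrogenase subunits differed: LDHB was lower by 0.97 ± 0.11 and LDHA, at 0.22 ± 0.10, did not pass the test.

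Of 9 tested genes of amino acid transport and synthesis 2 were higher (22.2%) and 4 lower (44.4%). Glutamine synthetase, GLUL, read 6.69 and 6.52 in MM1.S and 4.62 and 4.79 in NCI-H929 (−1.90 ± 0.11), while the ornithine aminotransferase OAT was higher by 0.96. CTH, which makes cysteine from cystathionine, read 7.96 and 7.77 in NCI-H929 and 5.92 and 5.70 in MM1.S. AHCY, which clears the product of methylation reactions, was higher by 1.23 ± 0.11. The serine synthesis enzyme PSAT1, at −0.26 ± 0.09, did not pass, though it did after quantile normalization. Of 20 tested one-carbon genes 5 were higher and 5 lower, 25% each way.

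Redox genes had 11 of 38 members higher in NCI-H929 (28.9%) and 12 lower (31.6%). Glutathione peroxidase 1, GPX1, read 7.03 and 6.69 in NCI-H929 and 5.22 and 4.78 in MM1.S. The peroxiredoxins ran opposite ways, PRDX2 at 1.05 ± 0.11 and PRDX1 at −0.62 ± 0.09, and the glutathione transferases MGST2 and GSTP1 were lower by 1.78 and 0.84. TXNIP, the inhibitor of thioredoxin, was lower by 1.14 ± 0.10. KEAP1, the brake on the antioxidant factor NRF2, was higher by 0.89.

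Lipid synthesis genes were called in both directions: 11 of 34 were higher in NCI-H929 (32.4%) and 12 lower (35.3%), with a median of −0.03. INSIG1, which holds back sterol synthesis, read 11.35 and 11.28 in MM1.S and 9.84 and 9.81 in NCI-H929. Enzymes of the same sterol pathway parted, with IDI1 (−1.25 ± 0.10) and MSMO1 (−1.19 ± 0.11) lower and SQLE (1.22 ± 0.10), PMVK (1.31 ± 0.13) and NSDHL (0.93 ± 0.12) higher. The fatty acid elongase ELOVL7 was lower by 2.00, the carboxylase ACACB by 1.32, and the desaturases FADS2 and FADS1 were higher by 1.41 and 0.70. PPARA, the regulator of fatty acid oxidation, was lower by 1.65 ± 0.19 and the oxidation enzyme HADH by 0.93. In the oxidation list 3 of 19 were higher (15.8%) and 5 lower (26.3%).

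Several purine enzymes were higher in NCI-H929. Besides AMPD1, which was chosen by its size and not from the list, AMPD2 (1.60 ± 0.15), PNP (1.24 ± 0.11), APRT (1.22 ± 0.11), IMPDH2 (1.29 ± 0.09) and HPRT1 (0.50 ± 0.10) were higher in NCI-H929. The pyrimidine-degrading DPYD, at 8.30 and 8.32 in MM1.S and 7.17 and 7.14 in NCI-H929, and the ribonucleotide reductase subunit RRM1 were lower, by 1.16 and 0.61. Over the whole nucleotide list 8 of 19 were higher (42.1%) and 6 lower (31.6%), with a median of −0.15.

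NAD metabolism bears on SIRT6, which consumes NAD. SIRT6 itself read 6.53 and 6.97 in NCI-H929 and 6.09 and 5.88 in MM1.S, a difference of 0.77 ± 0.16 (adjusted p = 0.00729, limma), so it was higher in NCI-H929 on the arrays without its hairpin. SIRT1 was lower by 1.04 ± 0.10 and PARP1, the main consumer of NAD after DNA damage, by 0.87. The pathway that makes NAD from tryptophan was split: KMO read 6.98 and 6.49 in MM1.S and 3.30 and 3.57 in NCI-H929, and QPRT, further along, read 3.77 and 3.34 against 5.31 and 5.24. NAMPT, the rate-limiting enzyme of NAD salvage, differed by −0.17 ± 0.13, with an interval from −0.49 to 0.14. Other rows of NAMPT, with lower means, gave differences of −0.765 and 0.095. Of 24 tested members 4 were higher (16.7%) and 5 lower (20.8%), close to the shares over all genes.

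Sensors of nucleic acids and microbial products were lower in NCI-H929 in several branches. The endosomal receptor TLR7 read 7.42 and 7.43 in MM1.S and 3.56 and 4.33 in NCI-H929. The surface receptors TLR6 and TLR1, which neighbour each other on chromosome 4, differed by −3.06 ± 0.19 and −2.13 ± 0.17. The cytosolic RNA sensors IFIH1 and RIGI differed by −2.13 ± 0.12 and −1.16 ± 0.17, and the interferon-induced genes IFIT5, SAMD9L and HERC6 by −2.48, −2.32 and −2.60. The transcription factor IRF9, which carries the interferon signal, was higher by 1.56 and the endosomal receptor TLR3 by 0.93. Over 35 tested genes 8 were higher (22.9%) and 11 lower (31.4%), with a median of −0.13. In antigen presentation, the trimming peptidase ERAP2 and the loading protein TAPBP were lower by 1.08 and 0.82, in a list with 4 of 10 lower (40%) and 1 higher (10%). The median of that list was −0.055. Called or not, 2 of its members were higher by at least 1 log2 unit and 1 was lower by as much.

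Genes of germ cells and neurons appeared in both lines. In the meiosis and cancer-testis list, with 4 of 13 higher in NCI-H929 (30.8%) and 1 lower (7.69%), the zinc finger gene CTCFL and the antigen CSAG1 were higher by 1.70 and 1.15, against SYCP3 on the MM1.S side. Of 23 tested neural genes 3 were higher (13.0%) and 6 lower (26.1%). NES was 1 of the 3, while SOX2, the contactin CNTN1 (−2.12 ± 0.13) and the microtubule protein MAP2 (−1.77 ± 0.20) were lower in NCI-H929.

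Few markers of other cell types were called. Of 10 tested markers of T and NK cells only NCAM1 was called, with the summed log2 level of the list at 43.2 and 43.6 on the MM1.S arrays and 46.9 and 47.4 on the NCI-H929 arrays. Of 7 tested myeloid markers only CD68, a lysosomal protein, was called, at 1.90 ± 0.11, and the list summed to 43.1 and 44.0 against 45.3 and 45.5. EPOR was the 1 of 4 erythroid markers called (0.52 ± 0.13), a call that ended without 3 of the 4 single scramble arrays (0.47 to 0.57), and the list summed to 23.04 and 23.88 against 23.70 and 23.69. Of 8 stromal and epithelial markers VIM was higher by 1.29 ± 0.10 and fibronectin, FN1, was lower by 2.25 ± 0.13, with sums of 50.7 and 51.7 against 50.8 and 50.9. Each sum covers all measured members of its list, tested or not. These were 10 T and NK, 11 myeloid, 5 erythroid and 11 stromal and epithelial markers. RMA gives no zero, so no marker could be read as absent. The part of other cells in these results was not tested.

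The array also reads the hairpin or primary transcripts of microRNAs, not the mature forms. Of 586 tested microRNA genes 39 were higher in NCI-H929 (6.66%) and 87 lower (14.8%), with a median of −0.02. Both shares lay below those over all tested genes (20% and 18.3%). The genes given here were chosen after their values were seen, except MIR15B and MIR16-2, which belong to a chromosome run described below. They fall into groups by the seed, bases 2 to 8 of the mature RNA, which governs target choice. It is in capitals in the mature sequences (RefSeq, GRCh38.p14). These are shown because called genes with the seed AGCAGCA differed in opposite directions, while those with GCUACAU or AGCACCA did not:
hsa-miR-424-5p: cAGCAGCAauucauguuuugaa
hsa-miR-15a-5p: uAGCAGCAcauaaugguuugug
hsa-miR-15b-5p: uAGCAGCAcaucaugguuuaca
hsa-miR-16-5p: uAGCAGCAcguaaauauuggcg
hsa-miR-503-5p: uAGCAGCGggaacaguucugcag
hsa-miR-221-3p: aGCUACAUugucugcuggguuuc
hsa-miR-222-3p: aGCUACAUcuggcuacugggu
hsa-miR-29a-3p: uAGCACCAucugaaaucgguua
hsa-miR-29c-3p: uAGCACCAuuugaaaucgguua
hsa-miR-146a-5p: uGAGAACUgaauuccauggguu

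The first 4 share the seed AGCAGCA, and miR-503 has the related seed AGCAGCG. MIR424 read 6.86 and 6.94 in NCI-H929 and 4.65 and 4.82 in MM1.S, a difference of 2.17 ± 0.10, and its neighbour MIR503 on the X chromosome was higher by 1.32 ± 0.16. MIR15B read 3.95 and 4.05 in NCI-H929 and 5.42 and 5.15 in MM1.S (−1.29 ± 0.19), and MIR15A was lower by 0.73 ± 0.21, a call that ended without 3 of the 4 single scramble arrays (−0.90 to −0.57). MIR16-2, beside MIR15B on chromosome 3, read 4.66 and 5.67 in NCI-H929 and 5.78 and 5.64 in MM1.S, so that its arrays overlapped, and MIR16-1, MIR195 and MIR497, with the same seed, differed by 0.10, 0.13 and 0.04 and were not called. Thus within 1 seed the X-linked gene was higher in NCI-H929 and both MIR15 genes lower.

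The neighbours MIR221 and MIR222 share the seed GCUACAU and were both higher in NCI-H929. MIR221 read 7.36 and 7.07 against 4.31 and 4.38, a difference of 2.87 ± 0.24, and MIR222 was higher by 0.94 ± 0.17. Both tested genes of the seed AGCACCA lay the other way, while MIR29B1, with the same seed, was below the filter. MIR29A read 2.78 and 2.69 in NCI-H929 and 4.95 and 4.19 in MM1.S (−1.83 ± 0.23), and MIR29C, from another chromosome, was lower by 1.02 ± 0.13. MIR146A, a microRNA that NF-kB induces and that restrains its upstream adaptors, read 5.21 and 5.03 in NCI-H929 and 7.03 and 6.95 in MM1.S (−1.87 ± 0.13).

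Differences were unevenly spread over the chromosomes. On chromosome 14, which carries the immunoglobulin heavy chain locus, 180 of 389 tested genes were higher in NCI-H929 (46.3%) and 12 lower (3.08%), with a median of 0.41, against 20% and 18.3% over all genes. TSHR, FAM30A, JAG2, NUMB, PNP, BMP4 and IRF9 lie on this chromosome. Chromosome 13 leaned the other way, with 8.90% higher and 33.9% lower and a median of −0.17, followed by chromosome 7 with 10.3% and 29.2%. Chromosomes 5 and 8 had 27.9% and 27.1% higher against 13.2% and 11.3% lower. On the shSIRT6 arrays the median of chromosome 14 was 0.34 and that of chromosome 13 was −0.13.

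**Figure D4:**
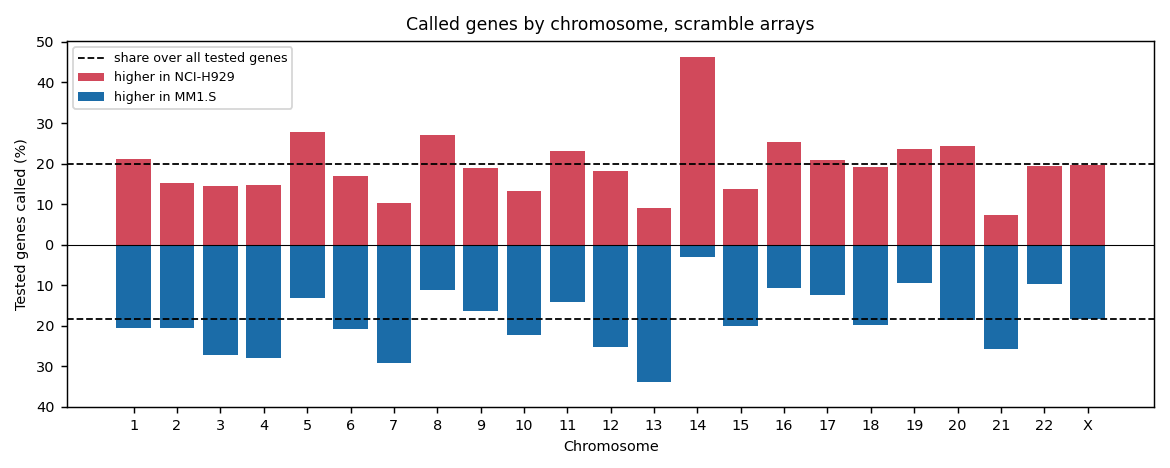
Share of tested genes on each chromosome called higher in NCI-H929 (up) or higher in MM1.S (down), in percent, with dashed lines at the shares over all tested genes. Chromosome 14 stands out with 46.3% higher and 3.08% lower, and chromosome 13 has the longest bar on the MM1.S side at 33.9%.

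Along the chromosomes, medians over 15 neighbouring tested genes marked shorter runs. The highest, 1.06, lay on chromosome 8 from CFAP418 to RIDA, with 10 of 15 genes higher in NCI-H929 and none lower. It holds LAPTM4B and MTDH, at 11.93 and 11.88 against 9.36 and 9.35 in MM1.S, the lipid synthesis enzyme PTDSS1 (1.57 ± 0.12), the respiratory chain subunit UQCRB (1.67 ± 0.11), the ribosomal gene RPL30 (1.59 ± 0.11) and the transcription terminator MTERF3 (0.91 ± 0.12), while SDC2 between them differed by −0.02 ± 0.10. The next, 0.89, lay on chromosome 19 from C3P1 to QTRT1, with 9 higher and 2 lower. ICAM1, KEAP1, TYK2, CDC37 and MRPL4 were higher there, the lower ones were S1PR2 and ICAM3, and DNMT1 differed by −0.08 ± 0.09.

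The lowest run, −1.63, lay on chromosome 7 from CTTNBP2 to POT1, with 10 of 15 lower in NCI-H929 and 2 higher. It holds the telomere protein POT1 (−1.65 ± 0.10), the actin regulator WASL (−1.66 ± 0.11), CADPS2 (−1.19 ± 0.11), the RING finger genes RNF148 and RNF133 (−2.26 and −1.77) and CPED1 (−2.34 ± 0.18), with TSPAN12, a tetraspanin, among those the other way at 1.11 ± 0.12. The second, −1.06, lay on chromosome 3 from CCNL1 to SCARNA7, with 11 lower and 1 higher, and holds the condensin subunit SMC4 (10.78 and 10.78 in MM1.S, 9.73 and 9.71 in NCI-H929), IFT80 (−1.26 ± 0.10), TRIM59 (−1.60 ± 0.14), VEPH1 (−2.67 ± 0.14), LXN and MIR15B. The third-highest run, on the X chromosome from HPRT1 to MAP7D3 with 11 higher and none lower, holds MIR424 and MIR503. Over 31 neighbours the extremes were 0.81 and −0.84, and the lowest run was then on chromosome 12.

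On the 4 shSIRT6 arrays, which share no array with the scramble comparison but share the fit's error, the same line difference gave 4823 calls (37.9%), 2339 higher in NCI-H929 and 2484 lower. Of the 4875 scramble calls 4694 had the same sign there and 3672 were called in the same direction, 75.3% of the scramble calls and 76.1% of the shSIRT6 calls. For 25 genes the calls were opposite. The differences correlated across the 12734 genes at 0.904, a description over genes that share arrays and are not independent. FGFR3, NSD2, MAF and LAPTM5 differed by 1.57, 1.11, −1.61 and −7.72 on those arrays, beside 2.04, 1.38, −1.46 and −8.16 on the scramble arrays.

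The counts of some gene lists were close on both sets of arrays and those of others were not. ERK output genes again had 11 higher and 1 lower on the shSIRT6 arrays, chemokines and receptors none higher and 10 lower, B cell genes 8 and 8, and adhesion genes 13 and 13. The balance was reversed for the Notch list, with 4 higher and 7 lower there against 7 and 4 on the scramble arrays. Wnt genes had 3 and 3 there against 7 and 1, glycolysis genes 3 and 3 against 5 and 1, and receptor tyrosine kinases 7 and 4 against 11 and 2. One-carbon genes had 11 higher and 4 lower against 5 and 5, amino acid genes 3 and 2 against 2 and 4, NAD genes 6 and 4 against 4 and 5, and G1 genes 4 and 5 against 5 and 3. The p53 list had 8 and 5 against 7 and 7, nucleotide genes 6 and 6 against 8 and 6, redox genes 6 and 11 against 11 and 12, and PI3K genes 1 and 8 against 4 and 7. The MAF list had 1 higher and 4 lower on the shSIRT6 arrays against none and 4, and the t(4;14) list 2 and 5 against 3 and 3. Whether a list's counts differ between the constructs was not tested.

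The line difference itself differed between the constructs for 26 genes (limma interaction contrast, adjusted p below 0.05). In this fit CCND2 was the only one of these with a more negative line difference on the shSIRT6 arrays, −3.75 there against −2.54 (adjusted p = 0.0371). That call ended when the rows of CCND2 were averaged (a change of −0.81 in place of −1.21, adjusted p = 0.101) and without any 1 of the 8 arrays (−1.28 to −1.14, adjusted p from 0.088 to 0.172). The other 25 had a more positive line difference on the shSIRT6 arrays, but with a trend of variance on level in the fit 430 genes were called, 202 more positive and 228 more negative. Among the 25, SULF1 went from −5.40 to −3.83, MBNL2 from −4.93 to −3.95, TXNIP from −1.14 to 0.19, the stress-induced SESN2 from −0.50 to 1.74, the asparagine synthetase ASNS from −0.33 to 1.10, PSAT1 from −0.26 to 0.71 and the leukotriene synthesis protein ALOX5AP from −1.69 to −0.27. The stress genes DDIT3 (from −1.50 to 0.99) and DDIT4 (from 2.25 to 4.41) were named after their values were seen. The ASNS difference on the scramble arrays was called, but not without any 1 of those 4 arrays (−0.36 to −0.29). It was also not called with only those 4 arrays in the fit. With the replicate number added to the fit, the changes of DDIT3, DDIT4 and SESN2 between constructs were still called. Those of the other genes named in this paragraph were not. Without any 1 of the 8 arrays the number of genes that differed between the constructs fell to 2 to 6. The changes of SESN2 and DDIT4 were called in all 8 of these fits and that of DDIT3 in 7, while those of SULF1, MBNL2, TXNIP, ASNS, PSAT1 and ALOX5AP were called in none.

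**Figure D5:**
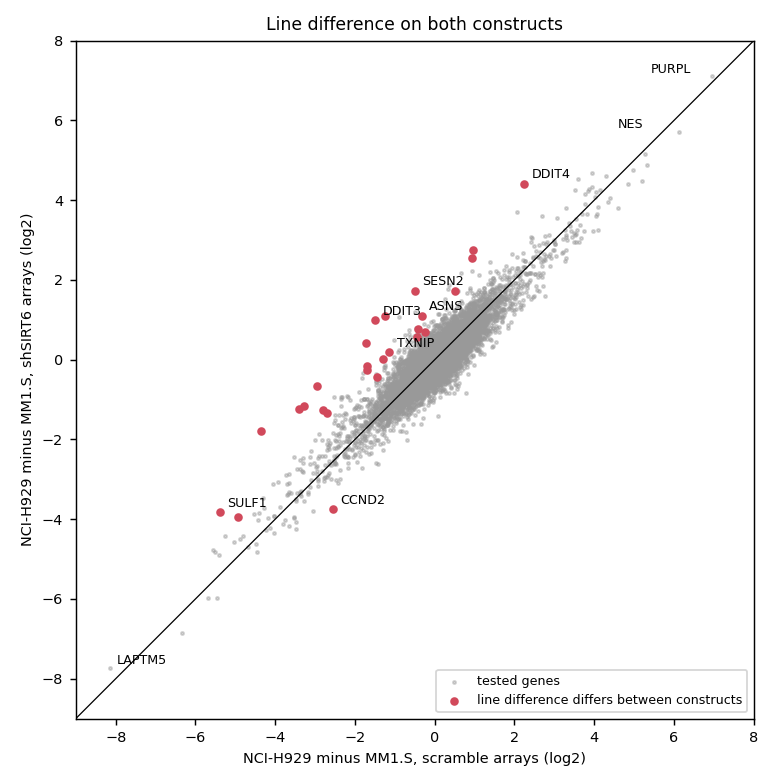
Line difference of each of 12734 tested genes on the scramble arrays (x axis) and on the shSIRT6 arrays (y axis), in log2 units, with the 26 genes whose line difference differed between constructs in red and a line of equality. Most genes follow the line (Pearson r of 0.904 across genes), and all red points but CCND2 lie above it.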

How the data were processed

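RNA of 8 samples of established myeloma lines was hybridised to Human Gene 2.0 ST arrays, 2 per combination of line (NCI-H929, MM1.S) and construct (scramble, shSIRT6). The deposited table holds log2 levels that the authors made by RMA in the Transcriptome Analysis Console, per the submitters' processing notes, on genome build hg19 (tool versions not given in the sources used here). No scanner files were used, so background correction and normalization were taken as deposited, and a probe set near the floor could not be judged against background.

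Rows with 1 gene symbol (16098 of 48226) were kept, and for the 779 genes with several rows the one with the highest mean was used. Genes were tested where that mean exceeded 3.045, the 30th percentile. Limma 3.58.1 (R 4.3.3) was fitted to all 8 arrays with 4 group means, which left 4 residual degrees of freedom plus 3.43 from the prior. Contrasts were the line difference under each construct and their difference, with Benjamini-Hochberg adjustment over 12734 genes. Exact permutation of 2 against 2 arrays cannot go below p = 0.333 and was not used. Same-numbered arrays did not deviate together (correlations of −0.041 to 0.077), so they were not treated as pairs.

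The members and the 42 gene lists were chosen with earlier results of these data known. Named were the line markers, SIRT6, the 15 largest differences each way, genes on in 1 line, up to 5 called members per list and direction by lowest p with members that define a pathway, and genes of the 2 most extreme chromosome runs each way. BTK, CD86, FCRL1, FADS1, HERC6, HPRT1, ICAM2, IRF8, MYB, PRDX1, RIGI, SELPLG, SESN2, TLR1, MIR2052HG, DDIT3 and DDIT4 were chosen after their values were seen, as were most microRNAs, and all tested ERK output genes were given to account for that list. Gene order came from RefSeq (GRCh38.p14), so no coordinates are given. Alternatives were quantile and cyclic loess normalization, filters, the mean of all rows, an intensity trend, the scramble arrays alone, the replicate block and leaving out each array.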

Additional observations from a re-analysis of the deposited data

Results flagged for a closer look

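A test of the change itself (limma, interaction contrast, 12734 genes) found 10 of the named genes whose NCI-H929 minus MM1.S difference was not the same under both constructs. The change, shSIRT6 minus scramble, was 2.49 log2 units for DDIT3, 2.24 for SESN2, 2.16 for DDIT4, 1.57 for SULF1, 1.43 for ASNS, 1.43 for ALOX5AP, 1.32 for TXNIP, 0.98 for MBNL2 and 0.96 for PSAT1. For CCND2 it was −1.21, which was not called with the rows of the gene averaged, with the replicate block (adjusted p = 0.106) or without any 1 array. The replicate block also ended the calls of ALOX5AP, ASNS and SULF1 (limma, adjusted p = 0.0515 each), TXNIP (0.0558), MBNL2 and PSAT1 (0.109 each). Those of MBNL2 and PSAT1 ended with quantile normalization and with no filter as well. Without any 1 of the 8 arrays only SESN2 and DDIT4 were called throughout, DDIT3 in 7 of the 8 fits and the other 7 genes in none. With 2 arrays per group no single array could be tested for standing apart from its group.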

How the results depend on the processing

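The count of line differences on the scramble arrays (4875) lay between 4740 and 5326 under the other settings and between 3713 and 4884 without 1 array. On the shSIRT6 arrays (4823) it lay between 4209 and 5229, and between 3784 and 4642 without 1 array. With the replicate block, the counts were 4864 and 4802, and 4693 of the scramble calls were made again in the same direction. The numbers do not pair the arrays, and among 275 named genes the block changed 1 call, that of NF1, which then passed. The count that moved most was that of genes whose line difference differed between constructs: 26 in the fit used here, 5 with the replicate block, 430 with a trend of variance on level (202 with a more positive difference, 228 with a more negative one, against 25 and 1), and 2 to 6 without 1 array. Leaving out an array leaves a group with 1 sample, which is then assumed to vary like the others. Genes on in 1 line only numbered 7 as defined, 22 with the upper level at 5, 5 with it at 7, 64 with the lower level at the median, 1 with it at the 20th percentile, and 8 to 13 without 1 scramble array. The extreme run medians went from 1.06 to 0.81 and from −1.63 to −0.84 with 31 neighbours. The 374 called list members became 375 to 377 under the other normalizations and row rule. No called named gene reversed under any setting run. Of the named genes 10 lost their call under at least 1 setting, and CDK4, EGR3, EPHA2, MIR16-2, MZB1, NF1, PSAT1 and SPRY2 gained one. The number of arrays limits what can be called, and signal over background was not available.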
